A study of Canis lupus familiaris with 28 samples.

Results

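Bardet-Biedl syndrome 2 (BBS2) and the other genes of the BBSome were followed in the blood RNA of 20 dogs with atopic dermatitis (AD) and 8 healthy dogs. The AD dogs were privately owned patients of various breeds that were sampled while clinical signs were visible, and no anti-inflammatory drugs had been given in the weeks before. The healthy dogs were blood donors. Each dog was hybridized to 1 two-color canine array, with the dog's own RNA in Cy5 and a common reference in Cy3, which was a pool of RNA from 13 other healthy dogs. The labels call the source whole blood and the methods of the study name peripheral blood nuclear cells, and in such a mixture fewer cells of a type and less RNA per cell cannot be told apart. Sex, breed and age are not tied to single arrays in the labels and were not part of any comparison.

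The members were all probes whose gene name on the array equals BBS1, BBS2, BBS4, BBS5, BBS7, BBS9, TTC8 or ARL6. Of these 8 genes 6 had a probe of that name, among 34382 names on the array, and together they had 10 of the 43603 probes. No probe is named BBS5 or ARL6. A further 3 probes carry a BBS4 or ARL6 description under another name, and they are given here beside the members but not counted among them. After probes with low signal were removed, 30202 probes were tested, and 6 member probes of 4 genes were among them: 3 probes of BBS2 and 1 each of BBS4, BBS7 and BBS9. The BBSome was looked at because 1 BBS2 probe, A_11_P192073, was lower in the AD dogs. Its difference between the groups is what brought these genes together, so it is described without a test.

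The BBSome is a coat-like complex that carries membrane proteins, among them signaling receptors, into and out of the primary cilium. BBS1, BBS2, BBS4, BBS5, BBS7, BBS9 and TTC8 (also called BBS8) are subunits of it. BBS2, BBS7 and BBS9 form the core on which assembly starts, and ARL6 (BBS3) is the small GTPase that recruits the finished complex to membranes. Mutations in these genes cause Bardet-Biedl syndrome, an inherited ciliopathy with obesity, retinal degeneration and kidney disease. Blood leukocytes carry no classical primary cilium, although parts of this transport machinery are also used at the immunological synapse of T cells.

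The 4 BBS2 probes lie on the plus strand of chromosome 2 (canFam3, as given by the array files). A_11_P192073 matches chr2:59691942-59692001 and is the most upstream of them. A_11_P175168 follows at chr2:59693865-59694356, where its 60 bases are spread over 492 bases of genome, so the match is split. The last 2 lie far downstream and close together, A_11_P0000039208 at chr2:59705457-59705516 and A_11_P159128 at chr2:59705565-59705624, with 48 bases between them. The distance from the start of the first probe to the start of the third is 13515 bases. The array files list the transcript ENSCAFT00000044985 for all 4 probes, and ENSCAFT00000014523 for the 3 downstream probes but not for A_11_P192073. The files do not say which exon each probe falls in. The sequence of A_11_P192073 is shown because this probe brought the genes together, and that of A_11_P175168 because it lies nearest to it. Those of the BBS4 and BBS9 probes are shown because they report partners of BBS2 in the comparison below. All are 60 bases, written 5′ to 3′ in lower case as the array files give them, with no stretch marked in capitals.
BBS2 A_11_P192073: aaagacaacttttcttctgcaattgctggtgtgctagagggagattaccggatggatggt
BBS2 A_11_P175168: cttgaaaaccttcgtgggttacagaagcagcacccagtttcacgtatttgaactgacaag
BBS4 A_11_P177708: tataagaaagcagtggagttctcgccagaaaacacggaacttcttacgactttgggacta
BBS9 A_11_P079611: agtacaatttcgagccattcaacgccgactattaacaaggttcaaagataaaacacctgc

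All values below are log2 ratios of the dog's signal to the common reference, centered on the median of each array, and differences are the mean of the AD dogs minus the mean of the healthy dogs. A probe was called changed when its adjusted p from limma (Benjamini-Hochberg over all tested probes) was at most 0.085, the threshold of the study. By that rule 0 of 30202 probes were called (0%), also at 0.05, and no adjusted p fell below 0.490. The study, whose filter left fewer transcripts, had listed BBS2 among the genes lower in AD at its threshold, without naming the probe. Without adjustment 1847 probes had a p under 0.05 (6.12%), of which 1348 were lower in AD (4.46% of all tested) and 499 higher (1.65%). The median difference of all tested probes was -0.01, and 90% of them lay between -0.36 and 0.35. The share of probes whose dog's channel was well above background was 84.3 to 90.3% on the healthy arrays and 51.7 to 87.5% on the AD arrays. The lowest AD arrays were those of scan day 5, AD dogs 15 to 20, at 51.7 to 63.2%, and that of AD dog 14, at 60.2%. The healthy dogs occupied slides 2 and 3 of 8 slides, all read on scan day 2 of 5, and no slide or scan day held both groups, so the group cannot be told apart from the slide or the day.

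In the upstream BBS2 probe A_11_P192073 the AD dogs were low and close together, and the healthy dogs were widely spread. The log2 ratios of the 20 AD dogs ran from -0.996 to 0.085 with a median of -0.41. Those of the healthy dogs 1 to 8 were -0.42, -0.07, 0.11, 0.72, -0.74, 1.01, -0.24 and 1.06. Healthy dogs 4, 6 and 8 stood well above every AD dog and healthy dog 3, at 0.11, just above the highest of them, while the other 4 healthy dogs ran from -0.74 to -0.07, within the AD range. The means were -0.47 ± 0.31 (SD, n = 20) and 0.18 ± 0.68 (SD, n = 8), a difference of -0.64. All 20 AD dogs were below the healthy mean, 18 were below the healthy median of 0.02, and 15 were inside the healthy range. The probe was well above background on all 28 arrays. Before centering, the median intensity of the Cy5 channel was 158 for AD and 238 for healthy dogs, and that of the Cy3 channel, the reference, was 214 and 230.

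The slide means of this probe are a description, since its difference is what brought these genes together. Every AD slide is also set against the same healthy slides. Slide means in AD were -0.74 on slide 1, -0.33 on slide 4, -0.29 on slide 5, -0.64 on slide 6, -0.53 on slide 7 and -0.34 on slide 8. The healthy means were 0.08 on slide 2 and 0.27 on slide 3. All 6 AD slide means were thus below both healthy slide means. Without slide 3 the difference was -0.55, and without slide 2 it was -0.74.

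The downstream BBS2 probes had smaller differences in the same direction on the ratio scale. Neither passed the test, which no tested probe passed. In A_11_P159128, the brightest BBS2 probe, the AD dogs ran from -1.32 to 0.27 (median -0.43) and the healthy dogs were at -0.28, -0.43, -0.19, -0.12, -0.69, 0.32, -0.49 and 0.57. The groups overlapped, with 14 of 20 AD dogs inside the healthy range. The means were -0.46 ± 0.46 (SD, n = 20) and -0.16 ± 0.42 (SD, n = 8). The difference was -0.30 (95% confidence interval -0.67 to 0.08, limma adjusted p = 0.866), with 14 of 20 AD dogs below the healthy mean. In its neighbor A_11_P0000039208 the AD dogs ran from -1.51 to 0.41 (median -0.44) and the healthy dogs were at -0.82, -0.14, -0.17, 0.06, -1.05, 0.32, -0.74 and 0.65. The means were -0.48 ± 0.55 and -0.24 ± 0.59. The difference was -0.24 (95% confidence interval -0.70 to 0.22, limma adjusted p = 0.873), with 13 of 20 AD dogs below the healthy mean and 17 inside the healthy range. Both intervals include 0. Whether the difference of the upstream probe exceeded those of the downstream probes was not tested, since it had been chosen for its size.

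The second upstream probe, A_11_P175168, was too dim to be tested. Its AD dogs ran from -1.85 to 0.94 (median -0.09) and its healthy dogs from -0.50 to 0.54 (median 0.05). It was well above background in 8 of 8 healthy and 13 of 20 AD dogs, and the 4 lowest AD values came from arrays on which it was not. The means were -0.14 ± 0.74 in AD and 0.07 ± 0.34 in healthy dogs, a difference of -0.21 that was smaller than the SD of either group.

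**Figure D1:**
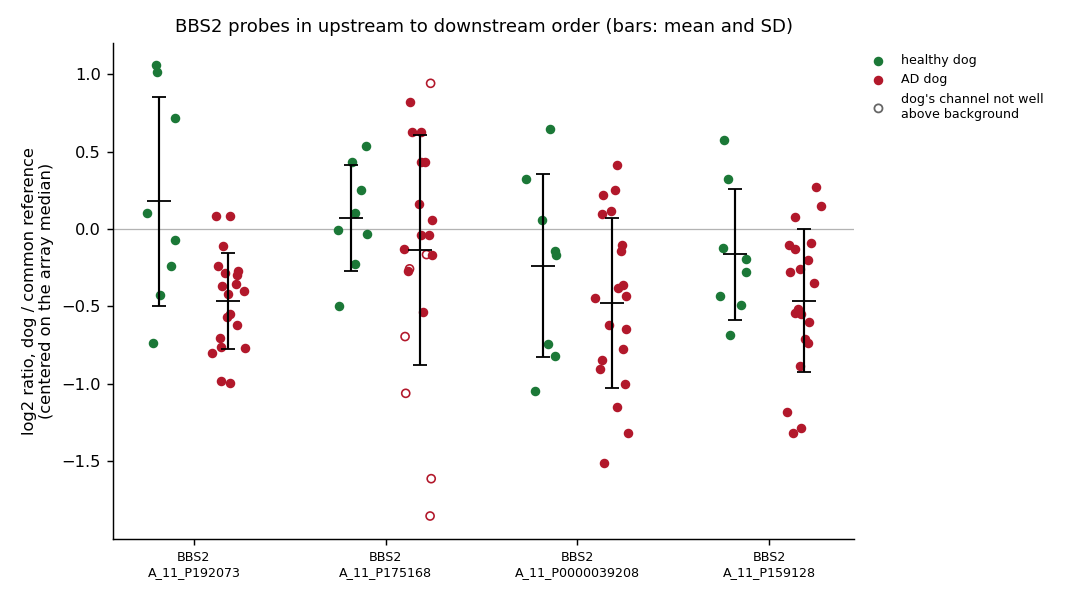
Log2 ratio of each dog to the common reference (y axis) for the 4 BBS2 probes in genomic order (x axis), with healthy dogs in green, AD dogs in red, open points where the dog's channel was not well above background, and black bars for mean and SD. At A_11_P192073 healthy dogs 4, 6 and 8 stand at 0.72, 1.01 and 1.06, well above all AD dogs. There 15 of 20 AD dogs lie inside the healthy range, and the groups overlap at all 4 probes.

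The ratio can move through either channel, and the reference RNA was the same on all arrays. For A_11_P192073 the centered dog's channel differed by -0.52 between AD and healthy arrays and the reference channel by 0.13, so the dog's channel made up most of the difference. For A_11_P159128 the dog's channel differed by -0.29 and the reference channel by 0.01. For A_11_P0000039208 the values were -0.08 and 0.16, and the reference channel thus made up most of that ratio difference. When the dog's channel was instead quantile-normalized between arrays and the reference left out, the differences were -0.40 for A_11_P192073, -0.42 for A_11_P159128 (limma adjusted p = 0.213) and -0.06 for A_11_P0000039208 (limma adjusted p = 0.912), so on that scale the brightest downstream probe was as low as the upstream one.

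The 3 tested BBS2 probes rose and fell together across the healthy dogs. Healthy dogs 4, 6 and 8 had the 3 highest values in all 3 tested probes, and healthy dog 5 had the lowest. The dim probe A_11_P175168 had another order: healthy dog 5 was at 0.11 and dog 4 at -0.01, dogs 3 and 8 were highest at 0.43 and 0.54, and dog 1 was lowest at -0.50. Pearson's r of A_11_P192073 was 0.957 with A_11_P0000039208 and 0.915 with A_11_P159128 in the healthy dogs (n = 8, exact permutation test, two-sided, adjusted p = 0.00298 for both). Spearman's rho was 0.976 and 0.929 (exact permutation, adjusted p = 0.00238 and 0.00893). Without the 2 dogs farthest from the median of A_11_P192073, r was 0.915 and 0.818 (exact permutation, adjusted p = 0.0333 and 0.139), so the second relation no longer passed an adjusted p of 0.05. Adjustment was over 12 relations, 6 pairs of probes in each group, and the pair of both downstream probes was added after the others had been computed.

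On the ratio scale the upstream probe did not follow the downstream ones in the 20 AD dogs to a degree that passed the test. Its r was 0.324 with A_11_P0000039208 (rho 0.361) and 0.228 with A_11_P159128 (rho 0.162), with adjusted p = 0.243 and 0.439 by permutation, and 0.177 and 0.537 for rho. With slide means removed, these r were 0.07 and -0.03 in the AD dogs, against 0.961 and 0.916 in the healthy dogs. In the quantile-normalized dog's channel the AD r was 0.523 with A_11_P0000039208, which passed an adjusted p of 0.05 (permutation adjusted p = 0.0362), and 0.0866 with A_11_P159128 (permutation adjusted p = 0.784). Slide means were not removed in that channel. Both downstream probes, whose targets are 48 bases apart, still followed each other in the AD dogs, with r = 0.875 and rho = 0.874 (permutation adjusted p = 0.00012 for both). Their r in the healthy dogs was 0.896 and their rho 0.881 (n = 8, exact permutation, adjusted p = 0.00551 and 0.0217). Without the 2 farthest dogs, r of both downstream probes was 0.876 in AD and 0.747 in healthy dogs, the latter no longer past 0.05 (exact permutation, adjusted p = 0.139). The SD of the upstream probe was 0.31 in AD and 0.68 in healthy dogs, and whether r differed between the groups was not tested.

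**Figure D2:**
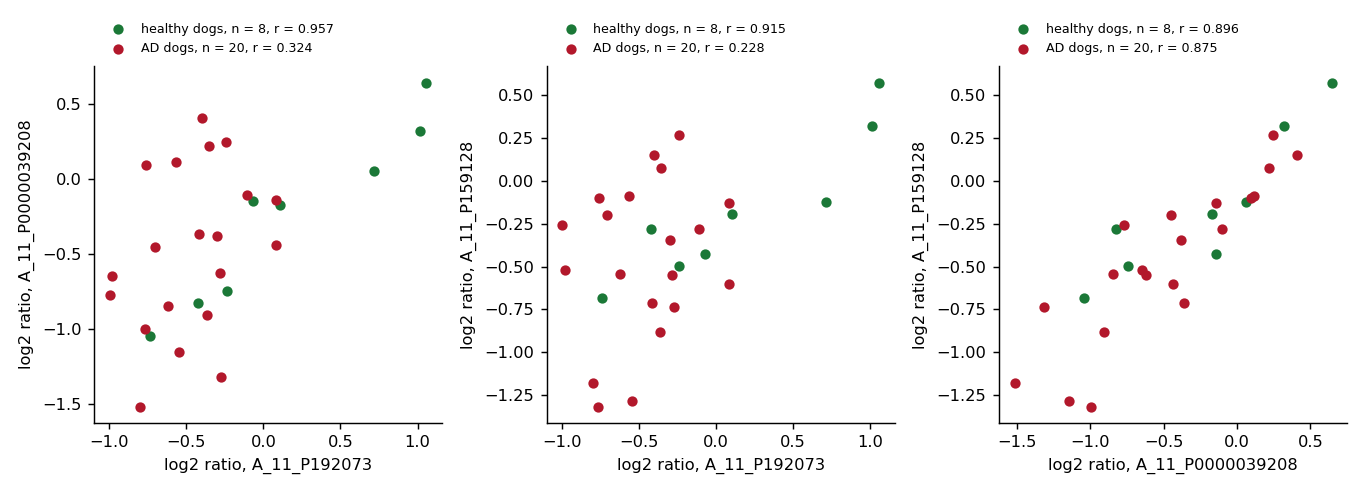
Log2 ratios of pairs of tested BBS2 probes, 1 point for each dog, with healthy dogs in green and AD dogs in red. The left and middle panels set the upstream probe A_11_P192073 (x axis) against each downstream probe, with r of 0.957 and 0.915 in healthy and 0.324 and 0.228 in AD dogs, and the right panel sets both downstream probes against each other, with r of 0.896 and 0.875.

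No partner gene of BBS2 was called, but neither was any of the 30202 tested probes, so that is no result about the partners. Most of their probes were dim. The median Cy5 intensity in AD and healthy dogs was 77.9 and 87.6 for the BBS7 probe, 84.7 and 109 for the BBS9 probe and 69.6 and 104 for the BBS4 probe, which were well above background in 13, 18 and 13 of 20 AD dogs and in 7, 8 and 8 of 8 healthy dogs. The AD dogs in which the BBS4 probe was not well above background were dogs 14 to 20, whose arrays had the lowest shares of such probes. For BBS9 they were dogs 16 and 20, and for BBS7 they were spread over other arrays as well. The BBS9 probe passed the signal filter through the healthy arrays alone, and the BBS7 probe through the reference channel of the AD arrays alone. The BBS4 probe passed through the healthy dogs' channel alone. Both BBS4 and BBS9 thus passed through the group where their signal is higher, so no test of either difference is given. The test of BBS7 thus says little about whether the partners share the lower level of BBS2. BBS7, which pairs with BBS2 in the core of the complex, had the most negative difference of them, and the widest spread. Its probe A_11_P0000021673 (chr19:18315581-18315640) ran from -1.96 to 1.06 in the AD dogs (median -0.72) and from -1.72 to 1.02 in the healthy dogs (median -0.14). The groups overlapped almost fully, with 17 of 20 AD dogs inside the healthy range. The difference was -0.40 (95% confidence interval -1.13 to 0.32, limma adjusted p = 0.872), with 11 of 20 AD dogs below the healthy mean. The centered dog's channel alone differed by -0.03 and the reference channel by 0.37. In the quantile-normalized dog's channel the BBS7 difference was 0.58, and with another background correction it was 0.03, so the sign turned with the processing.

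BBS9, the third gene of the core, had a difference close to 0 whose value moved with the slides and the scaling. Its probe A_11_P079611 (chr14:45424589-45424648) ran from -0.64 to 0.73 in the AD dogs (median -0.19) and from -0.64 to 0.12 in the healthy dogs (median -0.18). The difference was 0.08, with 10 of 20 AD dogs below the healthy mean. The probe passed the signal filter through the healthy arrays alone, so this is a description without a test. Without slide 3 the difference was -0.11, without slide 2 it was 0.27, and in the quantile-normalized dog's channel it was 0.49.

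BBS4, a subunit that joins the complex late and links it to the centriolar satellites, was measured by A_11_P177708 (chr30:36099530-36102226, a match spread over 2697 bases). The AD dogs ran from -0.64 to 0.73 (median 0.05) and the healthy dogs from -0.24 to 0.39 (median 0.14). The difference was -0.10. The centered dog's channel alone differed by -0.59 and the centered reference channel by -0.50, so both channels were lower on the AD arrays. The quantile-normalized dog's channel differed by 0.27. The probe passed the signal filter only through the healthy dogs' channel, where it is higher, so its difference is given as a description without a test. A further and much brighter probe with a BBS4 description but another name, A_11_P156728 (median Cy5 intensity 1079 in AD and 989 in healthy dogs), differed by -0.03 (95% confidence interval -0.36 to 0.30, limma adjusted p = 0.980), with AD dogs from -1.03 to 0.59 and healthy dogs from -0.68 to 0.26. The BBS4 probe A_11_P062711 was well above background on 0 of 28 arrays, and no difference is given for it.

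The remaining subunits could not be tested. BBS1, which binds ARL6 when the complex is recruited, had 1 probe, A_11_P074221 (chr18:50823122-50824035, minus strand). It was well above background in 13 of 20 AD and 8 of 8 healthy dogs, and its difference was 0.17, with AD values from -0.97 to 0.99 and healthy values from -0.21 to 0.67. The AD dogs without such a signal were dogs 14 to 20, whose arrays had few probes above background. Here 5 of 20 AD dogs were below the healthy mean. TTC8 was well above background on 2 of 28 arrays, both of AD dogs, and no difference is given for it. The probes with an ARL6 description differed by 0.30 (A_11_P058216) and 0.07 (A_11_P0000017198), both untested, and the highest values of the former were 0.56 in AD and 0.21 in healthy dogs. Both were dim. A_11_P058216 was well above background in 12 of 20 AD and 6 of 8 healthy dogs, and A_11_P0000017198 in 3 and 3.

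**Figure D3:**
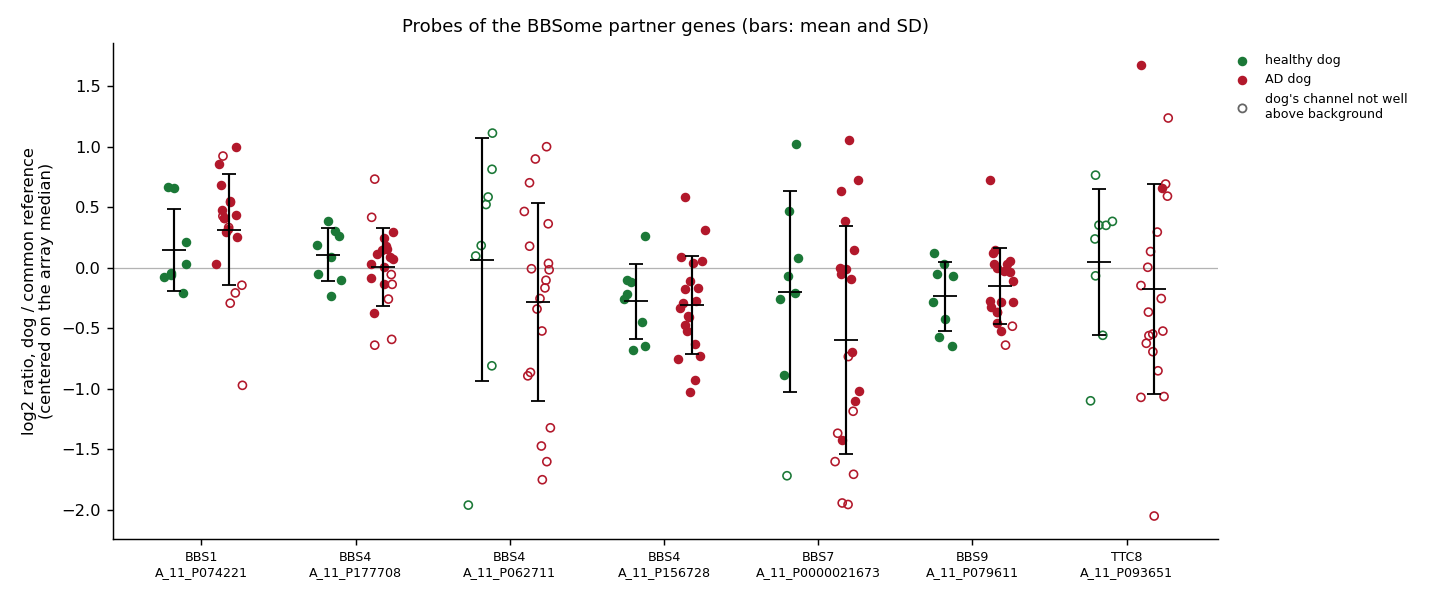
Log2 ratio of each dog to the common reference (y axis) for the probes of BBS1, BBS4, BBS7, BBS9 and TTC8 (x axis), drawn as for BBS2; A_11_P156728 carries BBS4 only in its description. The groups overlap at every probe, and all TTC8 values of healthy dogs and all A_11_P062711 values are open points.

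Over the 6 tested member probes the median difference was -0.27 and 5 were below 0, where 52.1% of all tested probes were below 0. The 3 BBS2 probes, which share 1 gene and include the probe that chose the members, had a median of -0.30. The other 3 had a median of -0.10, within the range of 90% of all probes, as was each of their differences except that of BBS7. The 6 and the 3 include the BBS4 and BBS9 probes, which passed the filter only through the healthy arrays, so these medians are a description. In the quantile-normalized dog's channel the member median was 0.10. In the centered but not quantile-normalized dog's channel all 6 were below 0, as the plot by channel shows, with BBS7 at -0.03. The reference channel, the same RNA on all arrays, was also lower for BBS4 (-0.50 against -0.59) and BBS9 (-0.25 against -0.16). It was higher for BBS7 and the BBS2 probes. The share of all tested probes below 0 on that scale is not given, so the count is a description.

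**Figure D4:**
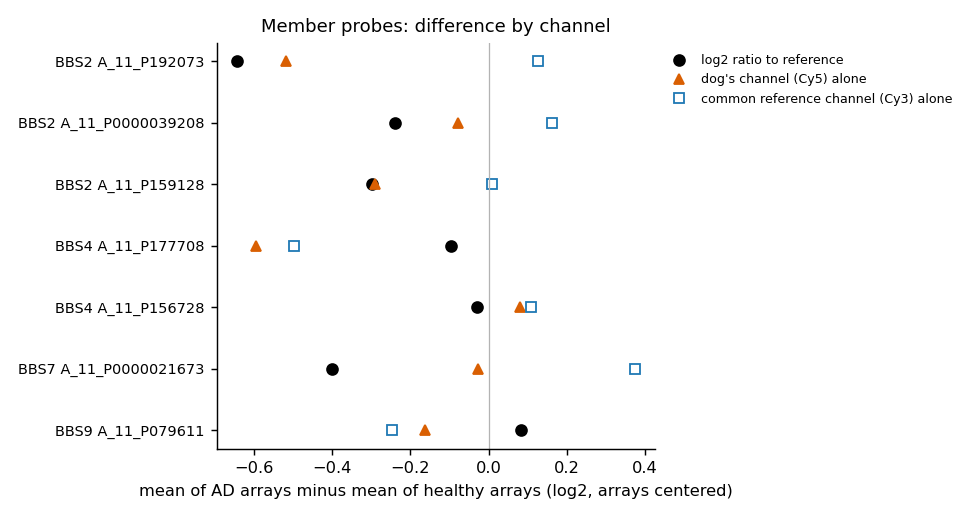
Difference between AD and healthy arrays (x axis, log2) for the 6 tested member probes and A_11_P156728 (y axis), as the ratio to the reference (black circles), in the centered dog's channel alone (orange triangles) and in the centered reference channel alone (open blue squares). For A_11_P192073 the dog's channel stands at -0.52 and the reference at 0.13, while for BBS7 they stand at -0.03 and 0.37.

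On the ratio scale the partner genes did not follow the upstream BBS2 probe to a degree that passed the test in either group. BBS4 (A_11_P177708) had r = 0.766 in the healthy dogs (rho 0.762) and 0.159 in the AD dogs (rho 0.198), with adjusted p = 0.0714 by exact permutation and 0.611 by permutation. BBS7 had r = 0.590 and 0.474 (rho 0.667 and 0.448), with adjusted p = 0.213 by exact permutation and 0.0714 by permutation. BBS9 had r = 0.176 and -0.02 (rho 0.0952 and 0.162), with adjusted p = 0.727 by exact permutation and 0.923 by permutation. None of these 6 relations passed an adjusted p of 0.05. In the quantile-normalized dog's channel BBS7 passed in both groups, with r = 0.778 in AD dogs (permutation adjusted p = 0.00108) and 0.795 in healthy dogs (exact permutation adjusted p = 0.0376). Slides and scan days were not accounted for there, and their part in these r was not tested. On the ratio scale with slide means removed, BBS7 had r = 0.462 in AD and 0.653 in healthy dogs. Neither passed (adjusted p = 0.0791 by permutation and 0.139 by exact permutation). Without the 2 farthest dogs, r was 0.696 and 0.148 for BBS4, 0.610 and 0.440 for BBS7, and 0.767 and -0.13 for BBS9 in healthy and AD dogs.

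Across all 28 arrays, after the group means were removed, the 5 named genes whose values were most like those of A_11_P192073 were PPP2R3C (r = 0.69), MUT (0.68), FAM190B (0.68), CNOT2 (0.66) and FRYL (0.65). PPP2R3C encodes a regulatory subunit of protein phosphatase 2A, MUT a mitochondrial methylmalonyl-CoA mutase and CNOT2 a subunit of the CCR4-NOT deadenylase. Their own differences between AD and healthy dogs were -0.25, -0.04, -0.22, 0.01 and -0.09, all smaller in size than that of the BBS2 probe. By the same measure the BBS2 probes A_11_P0000039208 and A_11_P159128 were at 0.58 and 0.48, BBS7 at 0.47, BBS4 (A_11_P177708) at 0.32 and BBS9 at 0.06. The brighter probe with a BBS4 description, A_11_P156728, was at 0.39. The median over all probes was 0.03 and the 95th percentile 0.44. These r are a description over 28 dogs whose arrays share the reference pool, the slides and the scan days.

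The wider cilium machinery showed no common shift. Of 59 further genes of BBSome assembly, BBSome trafficking, intraflagellar transport and the transition zone, 51 were on the array and 41 were tested, each by its brightest probe. None passed the adjusted threshold, as did none of all 30202 tested probes, and the median difference was 0.01. At an unadjusted limma p under 0.05, 2 of the 41 were lower and 0 higher, where 4.46% of all tested probes were lower and 1.65% higher. These 2 were transition zone genes, which form the gate at the base of the cilium: TMEM231 (-0.40, limma adjusted p = 0.490) and CC2D2A (-0.53, limma adjusted p = 0.708). The CC2D2A probe was dim, with a median Cy5 intensity of 61.4 in AD and 96.5 in healthy dogs. It was well above background in 13 of 20 AD and 8 of 8 healthy dogs. TMEM231 had been picked by the study from these same samples, so its direction is not independent evidence. In the same list of 10 tested genes MKS1, another part of that gate, differed by 0.48 (limma adjusted p = 0.866), and the list's median was 0.06.

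Among the genes that act directly on the BBSome, MKKS, a chaperonin-like factor needed for BBSome assembly, differed by -0.09 (limma adjusted p = 0.933), and BBS10 and BBS12 of the same group were too dim to be tested. LZTFL1, a regulator of BBSome entry into cilia, differed by -0.20 (limma adjusted p = 0.882), the lowest of 5 tested recruitment and trafficking genes, whose median was -0.08. Of 4 other Bardet-Biedl disease genes IFT172 was lowest at -0.27 and MKS1 highest at 0.48, with a median of -0.04. The trains that carry the BBSome were level. The 15 tested genes of the anterograde complex IFT-B ran from IFT172 (-0.27) to IFT27 (0.30) with a median of 0.01. The 5 of the retrograde complex IFT-A ran from IFT43 (-0.07) to WDR19 (0.19) with a median of 0.08. The 4 tested motor genes ran from DYNC2H1 (-0.10) to KIFAP3 (0.10) with a median of 0.03. In all of these lists 0 genes passed the adjusted threshold, as did 0 of all 30202 tested probes.

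**Figure D5:**
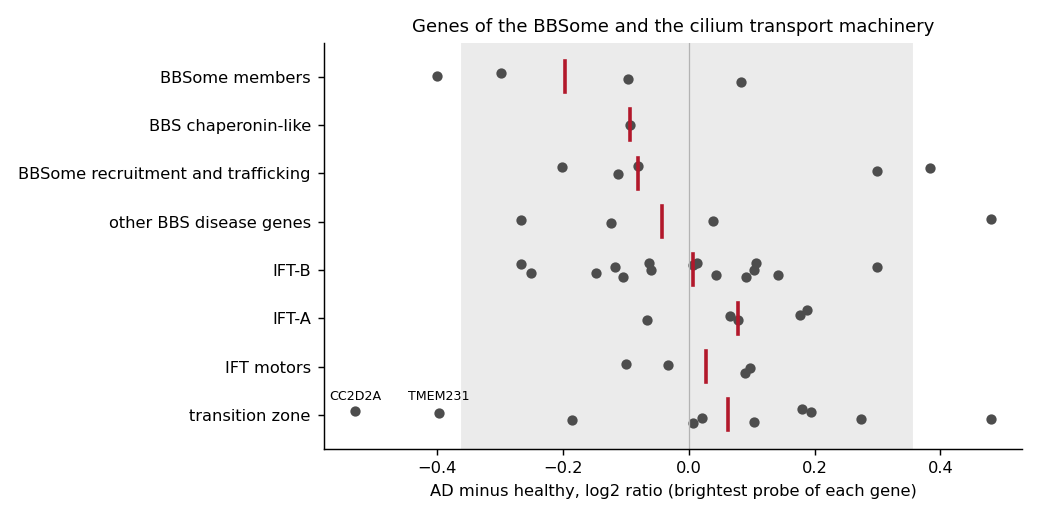
Difference between AD and healthy dogs (x axis, log2 ratio to the reference) for each tested gene of the BBSome and of the cilium transport lists (y axis), 1 point for the brightest probe of a gene, with the list median as a red line and the range of 90% of all tested probes in gray. List medians of the transport machinery lie between -0.09 and 0.08, and TMEM231 and CC2D2A stand at -0.40 and -0.53.

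Markers of blood cell types were set beside the BBS2 values. In none of the lists did a gene pass the adjusted threshold, which 0 of all 30202 tested probes passed. The 6 tested T cell genes had a median difference of 0.01, the 5 B cell genes 0.05 and the 5 monocyte genes 0.00. All 5 tested neutrophil genes were above 0 (median 0.27), as were all 5 red cell genes (median 0.52), and all 4 platelet genes were below 0 (median -0.30). The summed signal of the red cell genes, in units of the array's median signal, was 208 to 2644 in AD dogs and 122 to 1076 in healthy dogs, that of the neutrophil genes 309 to 1541 and 316 to 463, and that of the platelet genes 67.0 to 283 and 52.9 to 205. The 4 tested genes of ciliated epithelium, which blood should lack, had a median of 0.06, with 2 below and 2 above 0: TEKT1 at -0.43 (limma adjusted p = 0.490), CCDC39 at -0.01, RSPH1 at 0.14 and FOXJ1 at 0.48. Their list summed to 4.27 to 8.41 in AD and 8.04 to 13.3 in healthy dogs, and TEKT1, a protein of ciliary microtubules that the study had picked from these same samples, carried most of that sum (median intensity 1597 in AD and 2468 in healthy dogs). DNAH5 was well above background in 2 of 20 AD and 5 of 8 healthy dogs. The part of these shifts in the BBS2 values was not tested.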

How the data were processed

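The deposited scanner files hold the processed signal intensity of both channels for each spot, which the authors had background-subtracted and Lowess dye-normalized with Agilent Feature Extraction (version 10.7.3.1 in the submitters' notes, 10.10.1.1 in the file headers). The deposited table of log10 ratios equals the scanner's log ratio at every value within 0.001, with column medians near 0, and served as an alternative. Outlier-marked spots were set to missing, spots of a probe were averaged, and log2(Cy5/Cy3) was centered on each array's median. Probes were kept when the median signal exceeded 100 in at least 1 channel and group, at least 1 array was well above background, and at least 50% of each group's arrays had a value. Groups were compared over 28 arrays with limma 3.58.1 (lmFit, eBayes) in R 4.3.3 and Benjamini-Hochberg adjustment, and correlations were tested by permutation of dogs. Both scripts were tested on simulated data. The members and gene lists were chosen with earlier results of these data known. The text names all members, the lowest and highest gene of each cilium list, any gene past a threshold and the 5 genes most like the upstream BBS2 probe; single marker genes, BBS10 and BBS12 were named after their values were seen. The highest gene of the recruitment and trafficking list is not reported here. P-values measure the spread between dogs, 1 array each, and the number of arrays limits the precision. Alternatives covered the filter, outlier marks, background correction, centering, channel, source, slide, scan day, array weights and dog number.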

Additional observations from a re-analysis of the deposited data

How the results depend on the processing

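The difference of the upstream BBS2 probe A_11_P192073 was between -0.90 (array weights) and -0.31 (another background correction) under the 24 alternatives run. The probe had been chosen for this difference, so that range is a description. Leaving out slide 1 is the same fit as leaving out scan day 1, and slide 4 the same as scan day 3. The differences of A_11_P0000039208 (-0.57 to -0.06) and A_11_P159128 (-0.49 to -0.14) stayed below 0. Neither downstream BBS2 probe nor the BBS7 probe passed the adjusted threshold under any alternative in which it was tested. With all 4 median signals required to exceed 100, only the 3 BBS2 probes remained, and no partner member could be tested. The mean of the 3 BBS2 probes was -0.39. The number of called probes, 0 in the comparison reported, was 3 with no signal filter, 1251 with the quantile-normalized dog's channel alone (called the dog's channel below) and 849 with array weights; the cause was not tested. The same numbers are given to dogs of both groups, but they do not pair them: over 8 pairs the correlation of deviations ran from -0.36 to 0.42, and 1 of 8 healthy dogs correlated best with its own number. With a replicate block over dogs 1 to 8 of both groups 0 probes were called, and without the block on those dogs, an alternative added after seeing the data, 1 was called; the member median was -0.53 in both. The member median, -0.27 as reported, was 0.10 with the dog's channel. Directions turned for BBS7 with normexp background correction (0.0336) and the dog's channel (0.58), for BBS4 A_11_P177708 with the dog's channel (0.27), for BBS9 without slide 3 (-0.11; 0.27 without slide 2 and 0.49 with the dog's channel), and for A_11_P156728 with normexp (0.0393) and without slide 1 or scan day 1 (0.0588), slide 2 (0.0288) or slide 6 (0.0045). Of the relations with A_11_P192073, 2 passed an adjusted p of 0.05 as reported, 5 with the dog's channel (BBS7 and A_11_P0000039208 in both groups and A_11_P159128 in healthy dogs) and 1 without the 2 farthest dogs. Slide means were not removed in the dog's channel. In AD dogs r turned for BBS4 with normexp (-0.0271), the dog's channel (-0.10) and slide means removed (-0.0291), for A_11_P159128 with slide means removed (-0.0319), and for BBS9 with normexp (0.21), no centering (0.0258) and the dog's channel (0.37); in healthy dogs it turned for BBS9 with normexp (-0.10). Dim signal limits BBS1, TTC8 and A_11_P175168, which had no test, and also the tested probes of BBS4, BBS7 and BBS9.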
